A study of Arabidopsis thaliana with 12 samples.

Results

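The transcripts of the chloroplast genome were examined in RNA of *Arabidopsis thaliana* seedlings from the *ago4* study. The members were all genes whose identifier starts with ATCG, the prefix of the chloroplast genome, which gave 99 of the 16755 genes with a value. Any gene without a value is left out of the levels, shares of reads and percentiles below. RNA-seq was performed on 3 biological replicates of *ago4*, the *ago4-1* allele introgressed into Col-0. The methods take wild-type Col-0 and *nrpe1*, a mutant of the largest Pol V subunit, from earlier published RNA libraries. Those were handled side by side with the libraries of *ago4* and are not among the samples here. The labels give an age of 2 to 3 weeks under long days, whole seedlings as the source, and Col-0 as the background of the mutant. They also list formaldehyde crosslinking as the treatment, a step that the methods describe for Hi-C. All libraries were depleted of ribosomal RNA. The segment around *AGO4* that came with the introgressed allele limits *ago4* as a model of the loss of AGO4 alone.

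The value analysed here is the mean log2 CPM of each gene, its CPM being its read count scaled to a fixed total per library, which was averaged over the libraries of the original fit. The table names none of these libraries, so which genotypes entered the mean, and with how many libraries each, is not known here. The value is a pooled mean, so it has no replicate error, and the depth of single libraries is unknown. The difference between *ago4* and Col-0 was not analysed here, because it is held only as the outcome of the original comparison. Every value below is therefore a description of the seedling RNA of these libraries together, with no test. Nothing below says whether a chloroplast transcript differed in *ago4*.

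The chloroplast genome encodes core subunits of the photosynthetic complexes, the large subunit of Rubisco, part of the plastid ribosome, ribosomal RNAs and transfer RNAs. It is transcribed by a bacterial-type polymerase, which needs sigma factors encoded in the nucleus, and by phage-type polymerases that are nuclear-encoded. Most of its transcripts lack stable poly(A) tails, so they are kept in rRNA-depleted libraries but largely lost when poly(A) RNA is selected. A long stretch of the genome is present as a pair of inverted repeats. AGO4, the argonaute that binds the small RNAs of RNA-directed DNA methylation, acts in the nucleus.

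Of the 99 identifiers, 4 are named here. The RefSeq gene table of TAIR10.1 lists chloroplast genes under other identifiers and matched 0 of the 99. Notes on nuclear genes in the same annotation name the chloroplast protein most similar to each nuclear protein, together with its ATCG identifier. These notes named ATCG00670 as the plastid-encoded Clp protease subunit, ATCG00530 as a CemA-like protein, ATCG00660 as ribosomal protein L20 and ATCG00430 as photosystem II reaction center protein G. The first 3 correspond to *clpP*, *cemA* and *rpl20* of RefSeq. The other 95 are described as a group, without roles.

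The opening 60 bases of the coding sequences of these 3 genes are shown because they are the members whose levels are set per length here. The opening of *rpl2*, which encodes ribosomal protein L2, is added as a gene present in 2 copies. The start codon is in capitals. Sequences are 5′ to 3′ on the coding strand from the chloroplast genome of TAIR10.1 in RefSeq, while the reads were mapped to TAIR10.
clpP: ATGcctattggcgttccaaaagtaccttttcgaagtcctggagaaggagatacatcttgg
cemA: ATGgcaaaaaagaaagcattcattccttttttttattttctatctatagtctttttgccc
rpl20: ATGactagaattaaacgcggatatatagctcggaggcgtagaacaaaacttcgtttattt
rpl2: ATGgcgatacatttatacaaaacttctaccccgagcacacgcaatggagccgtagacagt

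In TAIR10.1, *clpP* spans 69910 to 71882 on the minus strand of the chloroplast genome and has 3 exons. *cemA* spans 60741 to 61430 on the plus strand and *rpl20* spans 68512 to 68865 on the minus strand. Both *cemA* and *rpl20* have 1 exon. *rpl2* has 2 exons and lies at 84337 to 85843 on the minus strand and again at 152806 to 154312 on the plus strand. Both copies open with the same 60 bases. The notes tie it to ATCG01310, which is not among the 99 members, and its level was not analysed here.

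Copies of this kind matter for these data because reads with more than one alignment were counted in an entry of their own. That entry held 57.4% of the summed CPM, and all genes together held 39.3%. It may count a read once per alignment, so 57.4% need not be the share of such reads. How much of that entry came from the chloroplast was not tested. In TAIR10.1, 35.4% of all 50-base windows of the chloroplast genome occurred more than once among all chromosomes and both organelle genomes. For windows of 100 bases the share was 34.2%. The read length is not given in the sources used here.

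Of 127 chloroplast genes annotated as a single segment, 75 had no repeated 50-base window, 20 had some and 32 consisted of repeated windows only. The last class held all 7 ribosomal RNA genes, 15 of 37 transfer RNA genes and 10 of 83 protein-coding genes. None of the windows of *clpP*, *cemA* and *rpl20* was repeated at either length. All 1458 windows of 50 bases in each copy of *rpl2* were repeated. The values of these 3 genes therefore do not miss reads through exact copies of such length, while this was not tested for the other members.

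Chloroplast genes made up 0.591% of the genes and 10.4% of the CPM assigned to genes. Their summed CPM was 41163. The mitochondrial genes, 43 in number, made up 0.752% of that CPM and the 16613 genes of the nuclear chromosomes made up 88.8%. These shares leave out reads aligned more than once, and how far this changes the chloroplast share was not tested. In bulk RNA, a share of this kind does not separate the number of chloroplasts or green cells from the RNA in each.

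The chloroplast genes were spread over a wide range. Their mean log2 CPM had a median of 5.23, with quartiles of 2.96 and 7.46, and ran from 0.07 to 13.88. Nuclear genes had a median of 2.86, with quartiles of 1.69 and 4.06, and mitochondrial genes a median of 2.18. These values are reads per gene and not levels per length, since exon lengths were set for 3 members only. The interquartile range of the chloroplast genes overlapped that of the nuclear genes.

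**Figure D1:**
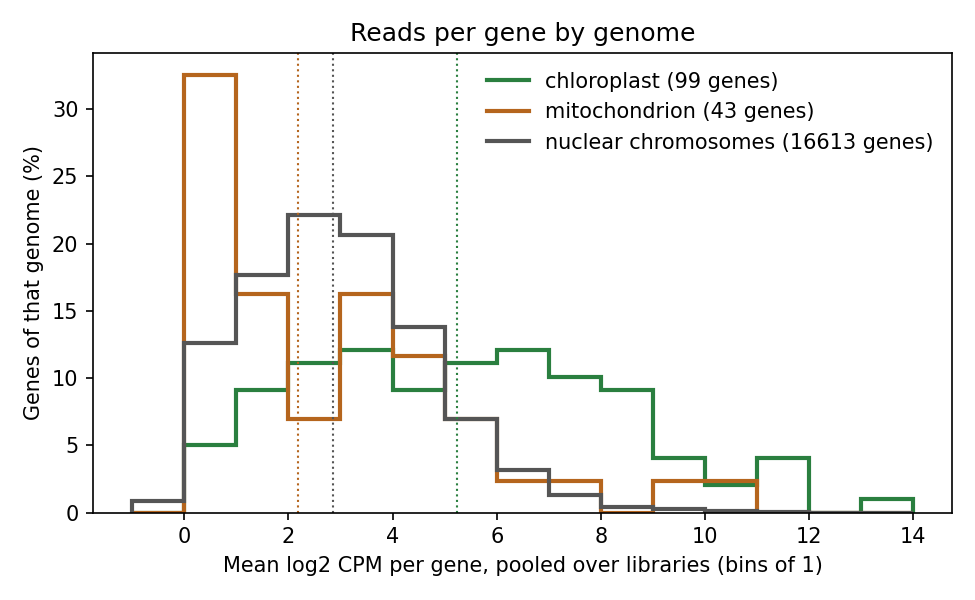
Share of the genes of each genome (y axis, percent) by mean log2 CPM per gene (x axis, bins of 1), for 99 chloroplast, 43 mitochondrial and 16613 nuclear genes, with dotted lines at the medians. The chloroplast genes extend up to 13.88 and have a median of 5.23, against 2.86 for nuclear genes.

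Of the 99 chloroplast genes, 76 were above the nuclear median, 49 were above the 90th percentile of the nuclear genes and 24 were above their 99th percentile, a log2 CPM of 7.72. All 99 had a log2 CPM above 0, as did 99.1% of the nuclear genes. The lowest value of any gene was 0.604 CPM, so this limit does not set the chloroplast genes apart. Counted in steps of 2 on the log2 scale, 14 chloroplast genes lay below 2, 23 between 2 and 4, 20 between 4 and 6 and 22 between 6 and 8. A further 13 lay between 8 and 10, 6 between 10 and 12 and 1 above that. The members thus had no single typical value. Which roles stand at the low or the high end cannot be given here.

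The chloroplast reads assigned to genes were concentrated in few genes. These values leave out reads aligned more than once and are not per length. Members with repeated stretches may therefore stand lower, and how far this shapes the order was not tested. ATCG00020 had 15097 CPM, a log2 CPM of 13.88, and held 36.7% of the chloroplast CPM. It was the highest of all 16755 genes. ATCG00490 followed with 3312 CPM and was the second of all genes, and the first 4 ranks of the whole table were chloroplast genes. The 5 highest members held 65.9% of the chloroplast CPM, the 10 highest held 81.7% and the 20 highest held 90.6%. The 50 lowest members together held 1.41%. Among the 10 genes with the most reads in the table, 5 were chloroplast genes. The number was 13 among the first 100 and 42 among the first 1000. At the other end, ATCG01030 had 1.05 CPM and ATCG00110 had 1.45 CPM, near the lowest value of any gene, 0.604 CPM.

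**Figure D2:**
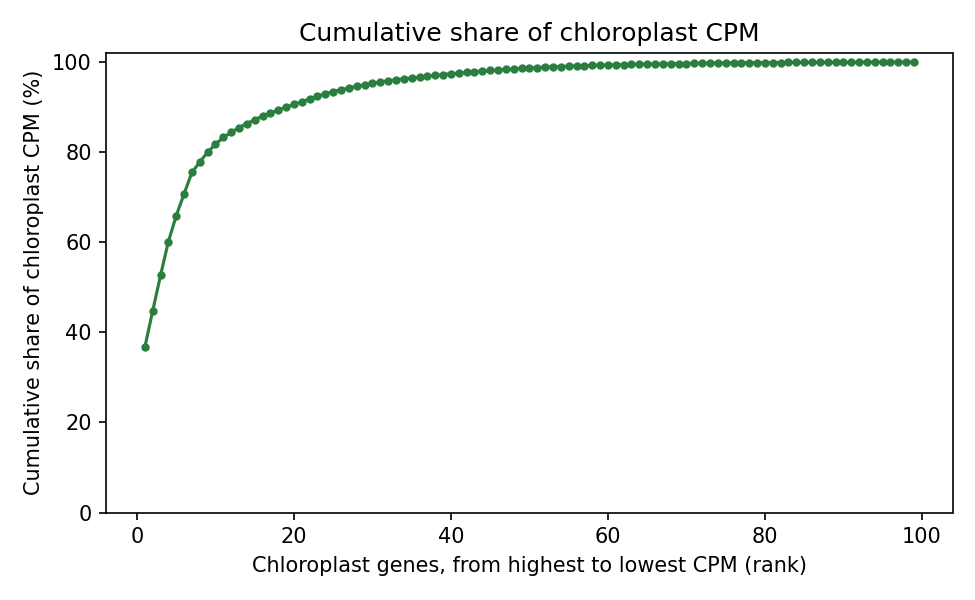
Cumulative share of the summed chloroplast CPM (y axis, percent) over the 99 chloroplast genes ordered from the highest to the lowest CPM (x axis, rank), 1 point per gene. The first point is ATCG00020 at 36.7%, and the curve reaches 81.7% at the tenth gene. Reads aligned more than once are left out, and CPM is not divided by length.

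Among the named members, *clpP* had the most reads. It encodes the plastid-made catalytic subunit of the Clp protease, which degrades proteins of the chloroplast stroma. Its value was 897 CPM, a log2 CPM of 9.81, and it held 2.18% of the chloroplast CPM as the ninth member in order. Divided by its 591 bases of exon, its level was 10.57 on the scale of log2 CPM per kb. Divided by the 1973 bases from its start to its end, introns included, it was 8.83. Whether intron reads were counted is not given in the sources used here.

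ATCG00430, named as photosystem II reaction center protein G, had 447 CPM, a log2 CPM of 8.81, and held 1.09% of the chloroplast CPM. The nuclear gene whose note names it, AT5G11770, is annotated as the NADH-ubiquinone oxidoreductase 20 kDa subunit of the respiratory chain. The name is the one in the note and an old one. The protein formerly named so belongs to the NADH dehydrogenase-like complex of the chloroplast, a relative of the respiratory complex, and not to photosystem II. No exon length could be tied to ATCG00430, so it was not compared per length.

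*rpl20* and *cemA* had fewer reads than *clpP*. *rpl20*, for a protein of the large subunit of the plastid ribosome, had 21.7 CPM and a level of 5.94 in log2 CPM per kb. *cemA*, for a protein of the chloroplast envelope membrane, had 48.4 CPM and a level of 6.13. Per length the order was *clpP*, *cemA* and *rpl20*. With no replicate values it cannot be said which neighbours in this order differ, and *cemA* and *rpl20* were only 0.20 apart on the log2 scale.

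*clpP* and *rpl20* lie on the same strand with 1044 bases between them. Per kb of exon *clpP* was 24.8 times as high as *rpl20*, a difference of 4.63 on the log2 scale. With the whole span as length it was 7.42 times as high.

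All 3 members were also placed among the 16141 nuclear protein-coding genes that had both a value and an exon length. Their median was 1.95 in log2 CPM per kb, with quartiles of 0.84 and 3.23. The level of *clpP* was above 99.9% of these nuclear genes. For *cemA* the share was 96.8% and for *rpl20* it was 96.2%. The exons of nuclear genes include untranslated regions and those of the chloroplast genes are coding sequence only. The lengths of both kinds are therefore not alike in this respect.

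Each of these members was set beside the nuclear gene whose note names it. *clpP* had a level of 10.57 in log2 CPM per kb, against 5.18 for CLP2 (AT1G12410), a nuclear-encoded subunit of the same protease. *rpl20* had 5.94, against 3.08 for AT1G16740, annotated as ribosomal protein L20. That name does not say which ribosome the nuclear-encoded protein belongs to. *cemA* had 6.13, against 4.44 for AT4G31040, annotated as a CemA-like protein. The chloroplast gene was the higher one in all 3 pairs, by 5.39, 2.86 and 1.69 on the log2 scale. These sizes depend on the length used. With no division by length, chosen after seeing the data like the other lengths here, the differences in log2 CPM were 4.35, 1.88 and 0.23, so *cemA* and AT4G31040 had nearly the same number of reads. With the span of both genes as length they were 4.53, 3.96 and 2.17. With the span of *clpP* and the exons of CLP2 the first was 3.65.

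**Figure D3:**
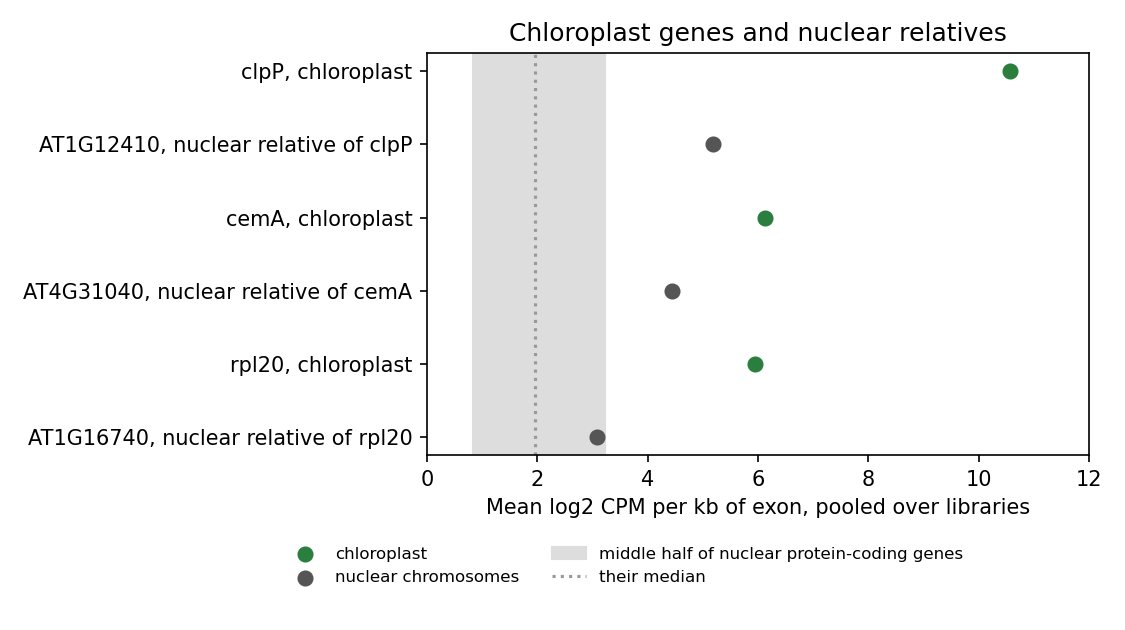
Mean log2 CPM per kb of exon (x axis) of 3 chloroplast genes and, below each, the nuclear gene annotated as similar to it, 1 point per gene, with the quartile range and median of 16141 nuclear protein-coding genes in grey. Each chloroplast gene lies to the right of its nuclear relative, and *clpP* at 10.57 is farthest to the right.

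Nuclear genes that work with the chloroplast genome were also measured in the same RNA. The 4 genes of the Rubisco small subunit together held 0.717% of the CPM of genes and ran from 6.19 for RBCS1B to 10.30 for RBCS1A in log2 CPM per kb. These genes are near-identical in part, and reads aligned more than once are not in these values. Their split, their levels and their sum are therefore uncertain. A chosen list of 8 nuclear subunits of the photosynthetic complexes, not all of them, ran from 7.15 for ATPC1 of the ATP synthase to 10.69 for PSAE-1 of photosystem I. The 6 sigma factors and both phage-type polymerases ran from 0.10 for AT5G15700, a polymerase, to 5.15 for SIG2, a sigma factor. Per kb of exon the level of *clpP*, 10.57, lay near that of PSAE-1, but per kb of its span it was 8.83, below PSAE-1 and below PETC of the cytochrome b6f complex at 9.15. The levels of *cemA*, 6.13, and *rpl20*, 5.94, lay below that of ATPC1.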

How the data were processed

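TopHat2 was the aligner, TAIR10 the genome and edgeR the tool for the comparison, per the submitters' processing notes and the methods, with no versions. The table deposited by the authors gives 1 mean log2 CPM per gene, with no library named. It also holds log2 fold changes and p-values of the authors' own comparison, which were not used. The Hi-C lists hold nuclear regions only and were not used. No columns of single libraries were used, so there are no groups to test and no depth per library.

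The 3 entries that name no gene were set apart. They held reads outside any feature (2.22% of all CPM), reads in more than one feature (1.02%) and alignments that were not unique (57.4%). Whether a read aligned more than once adds to the last entry once or once per alignment is not given in the sources used here. CPM is 2 to the power of the log2 value. Lengths of nuclear genes are unions of annotated exons in TAIR10.1, and those of the chloroplast genes are summed coding sequence. Levels per length are log2 CPM minus the log2 of the length in kb. Windows were searched on both strands.

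The members and lists were chosen with earlier results of these data known. The genes to be named were the 10 highest and the 10 lowest members, the extremes of each list and the nuclear partners. Since 95 identifiers were not named, the lists of chloroplast genes and 2 planned results, the median level of single-copy genes and its difference from inverted-repeat genes, could not be computed. Of the unnamed members, the 2 highest and the 2 lowest are given by identifier. The choice of nuclear relatives came after seeing the data. Python 3.11.15, numpy 2.4.6, pandas 2.3.3, matplotlib 3.10.9 and Biopython 1.88 were used.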

Additional observations from a re-analysis of the deposited data

How the results depend on the processing

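The chloroplast share of the CPM of genes was 10.4%. With all entries of the table as the denominator it was 4.09%, a total in which a read aligned more than once may count repeatedly. With the lowest CPM of the table subtracted from every gene it was 10.7%. Without the highest gene, ATCG00020, an alternative chosen after seeing the data, it was 6.85%. Restricting the table to genes at a log2 CPM of at least 0 left it at 10.4%. The median log2 CPM of the chloroplast genes ran from 5.21 to 5.23 under its 2 alternatives. No error is available for a pooled mean, so any change in the printed value is given as a change. The alternative that leaves out genes of the inverted repeat was not run, nor were those of the 2 results that could not be computed. No paired analysis was possible because the table holds no values of single libraries, and for the same reason no replicate could be left out.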
